A study of Mus musculus with 12 samples.

Results

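The sterol regulatory element-binding proteins (SREBPs) and the proteins that control their release from the endoplasmic reticulum are encoded by 7 genes, which were taken by name from the deposited table: Srebf1, Srebf2, Scap, Insig1, Insig2, Mbtps1 and Mbtps2. They are 7 of the 54532 genes in the table, and all 7 were among the 14277 genes with enough reads to be tested. Their levels were followed in whole liver from 12 male mice in 4 groups of 3. The groups were hepatocyte knockout of Slc25a34 (HKO) on fast-food diet (FFD), control (WT) on FFD, HKO on chow and WT on chow. Every mouse, the controls included, carried a floxed Slc25a34 allele with loxP sites in the promoter and in intron 1. At 2 months of age the mice were injected with an AAV8 vector whose thyroxine binding globulin (TBG) promoter drove Cre in HKO mice and green fluorescent protein (GFP) in WT mice. They then ate chow for 1 month and either FFD or chow for 2 months more, and the livers were collected after a fast of 16 h. Per the labels' protocols the vector reaches more than 95% of hepatocytes, so other liver cells keep the gene. The composition of the FFD is not given in the sources used here.

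SREBPs are transcription factors made as precursors in the membrane of the endoplasmic reticulum. SREBP-2, from Srebf2, mainly activates genes of cholesterol synthesis and uptake, while SREBP-1c, the main liver form from Srebf1, mainly activates genes of fatty acid synthesis. SCAP escorts the precursors to the Golgi when sterols are low, INSIG-1 and INSIG-2 hold SCAP back when sterols are high, and the site-1 and site-2 proteases, from Mbtps1 and Mbtps2, cut the precursor there to free its active end. Transcription of Srebf1 in liver is also raised by insulin and by the oxysterol receptor LXR, and both SREBPs act on their own genes and on Insig1. The counts measure mRNA per gene. They do not measure precursor cleavage, and they do not separate SREBP-1a from SREBP-1c mRNA.

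Windows of DNA at the start of Srebf1, Srebf2 and Insig1 are shown because these are the 3 members whose change with diet was largest. Each covers 250 bases before to 50 bases after an annotated start, reads 5′ to 3′ on the gene's strand, and comes from RefSeq on GRCm38.p6, the assembly of mm10. Capitals mark matches to the LXR element of the SREBP-1c promoter (GGTTACT, any base, then GCGG), TCACCCCA or TCACNCCA (the sterol regulatory element) and CACGTG (the E-box).
Srebf1, chr11:60210422-60210721, minus strand: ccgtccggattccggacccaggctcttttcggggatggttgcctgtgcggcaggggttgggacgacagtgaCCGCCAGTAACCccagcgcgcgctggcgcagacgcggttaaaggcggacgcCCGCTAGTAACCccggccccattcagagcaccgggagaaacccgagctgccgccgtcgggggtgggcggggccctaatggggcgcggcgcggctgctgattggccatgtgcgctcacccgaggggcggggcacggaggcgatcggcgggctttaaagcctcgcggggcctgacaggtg
Srebf2, chr15:82147019-82147318, plus strand: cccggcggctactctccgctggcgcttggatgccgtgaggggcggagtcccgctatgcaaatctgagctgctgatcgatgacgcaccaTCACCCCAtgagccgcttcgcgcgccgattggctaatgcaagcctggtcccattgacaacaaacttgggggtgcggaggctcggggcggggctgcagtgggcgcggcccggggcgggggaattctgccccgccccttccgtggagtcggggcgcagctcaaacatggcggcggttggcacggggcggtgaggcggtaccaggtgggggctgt
Insig1, chr5:28071162-28071461, plus strand: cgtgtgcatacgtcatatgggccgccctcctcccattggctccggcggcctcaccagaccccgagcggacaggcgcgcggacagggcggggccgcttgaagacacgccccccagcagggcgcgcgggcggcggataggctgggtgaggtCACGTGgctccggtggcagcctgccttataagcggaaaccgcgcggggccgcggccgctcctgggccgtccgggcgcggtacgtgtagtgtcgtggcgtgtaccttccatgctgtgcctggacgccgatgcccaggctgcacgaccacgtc
Both strands were searched, and each TCACCCCA is also a TCACNCCA. The Srebf1 window holds the LXR element at 2 places, both on the opposite strand, from −179 to −168 and from −128 to −117 relative to the start. This motif occurred in 2 of 32851 windows (0.00609%), a rarity that follows from its choice, since it spells the element known from this gene. The Srebf2 window holds TCACCCCA from −162 to −155, a motif found in 1.56% of all windows, while TCACNCCA was found in 4.36%. The Insig1 window holds CACGTG from −101 to −96, a motif found in 7.15% of all windows, and has no match to the other motifs in capitals. The windows at the other 2 annotated starts of Srebf1 had none of these motifs. Scap has CACGTG near its start, and the windows of Insig2, Mbtps1 and Mbtps2 had none of them. CCAAT, the NF-Y box, and GGGCGG, the Sp1 box, were also searched and are not marked, since 37.4% and 35.7% of all windows hold them. A match describes the letters only, since no binding was measured. Only these exact letters were searched, so a window without a match may still hold a variant of an element.

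Library depth was 12842187 to 24332663 counted reads, and the reads per library ranged from 156 for Mbtps2, the least covered of the 7 genes, to 7735 for Insig2. Levels are given in CPM, the reads of a gene scaled to a common library size, or, to compare genes, in RPKM, the CPM divided by the deposited gene length in kilobases. Slc25a34 averaged 0.413 ± 0.277 CPM in HKO FFD livers and 3.32 ± 1.54 in WT FFD livers, and 0.538 ± 0.210 in HKO chow livers and 6.27 ± 1.17 in WT chow livers (SD, n = 3 each). The edgeR adjusted p of HKO against WT was 0.0709 on FFD and 0.024 on chow. The 7 hepatocyte marker genes summed to 61458 to 66129 CPM in FFD libraries and 65244 to 76984 CPM in chow libraries, and no defining marker of hepatocytes was at 0. WT FFD replicate 2 and WT chow replicate 3 stood apart by raised acute phase genes. Diet calls of the 7 members that are lost when both are left out are given with and without them. For other genes, single calls without this pair are not given. In whole liver, fewer cells of a type and less RNA per cell cannot be told apart. The numbers in the libraries' column names run in separate ranges for the diets, and that of WT chow replicate 3 stands apart from the other chow libraries. What they mark is not given, so that numbering and diet cannot be told apart.

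Diet changed the 2 transcription factor genes in opposite directions. Srebf1 rose on FFD to 4.20 times its chow level in HKO livers and 5.69 times in WT livers, and Srebf2 fell to 0.578 and 0.525 of its chow level. Insig1 fell with Srebf2, to 0.456 and 0.391 of its chow level. The genes of the escort and of the proteases moved less, between 0.872 and 1.19 times their chow level.

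Srebf1 had 162, 154 and 176 CPM in HKO FFD livers, against 35.9, 45.01 and 36.1 CPM in HKO chow livers. In WT livers it had 226, 209.9 and 233 CPM on FFD, against 57.4, 36.0 and 24.0 CPM on chow. Every FFD library lay above every chow library, and the lowest chow value belonged to WT chow replicate 3. The log2 fold change with FFD was 2.07 ± 0.23 (SE, 95% interval 1.57 to 2.56) in HKO livers, with an adjusted p of 0.000278 (edgeR, quasi-likelihood). It was 2.51 ± 0.23 (2.01 to 3.01) in WT livers, with an adjusted p of 0.000118. Among the genes called higher on FFD, 80 in HKO livers and 53 in WT livers rose by at least as much, Srebf1 included. The gene lies at chr11:60199089-60222581 on the minus strand and shares 109 bases with Rai1 on the opposite strand. Rai1 itself had 337 to 611 reads per library, against 374 to 4555 for Srebf1. All gene positions are on mm10 as deposited.

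Srebf2 had 31.8, 42.3 and 41.0 CPM in HKO FFD livers, against 63.4, 64.2 and 71.8 CPM in HKO chow livers. In WT livers it had 26.2, 37.0 and 31.3 CPM on FFD, against 63.4, 56.9 and 59.9 CPM on chow. Every FFD library lay below every chow library. The log2 fold change with FFD was −0.79 ± 0.13 (SE, 95% interval −1.07 to −0.51) in HKO livers, with an adjusted p of 0.00221, and −0.93 ± 0.13 (−1.21 to −0.65) in WT livers, with an adjusted p of 0.001. The gene lies at chr15:82147181-82205379 on the plus strand and hosts Mir33, the precursor of miR-33, which was at 0 counts in all 12 libraries. The counts measure mRNA per gene, so this 0 does not show whether miR-33 was present. In total, 9 genes overlap a member by position, and apart from Rai1 none had more than 19 reads in a library.

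**Figure D1:**
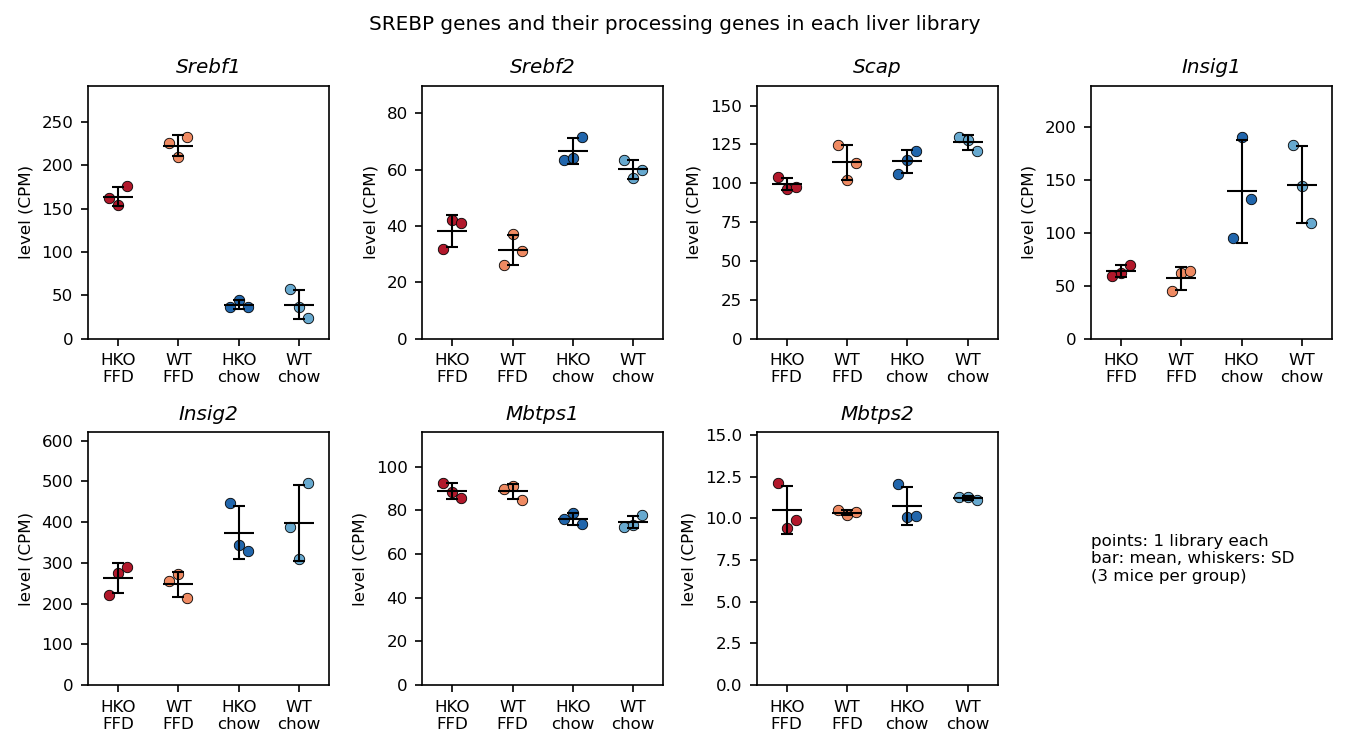
Levels in CPM (vertical axes) of the 7 genes in the 4 groups along the horizontal axes, with 1 point per liver and the group mean and SD. Srebf1 sits at 154 to 233 CPM in the FFD libraries and at 24.0 to 57.4 CPM in the chow libraries, while Srebf2 and Insig1 sit lower on FFD and Mbtps2 stays between 9.45 and 12.1 CPM throughout.

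The contrast of the 2 genes was also taken within each library, as the ratio of Srebf1 to Srebf2 in RPKM. On FFD Srebf1 exceeded Srebf2 in all 6 livers, by 4.64 to 6.48 times in HKO livers and by 7.21 to 10.9 times in WT livers. On chow the ratio was 0.642 to 0.894 in HKO livers and 0.513 to 1.15 in WT livers, so that Srebf2 was the higher of the 2 in all but 1 liver, WT chow replicate 1. The ratio on FFD over that on chow was 7.34 in HKO livers, with an exact two-sided permutation p of 0.1, and 11.6 in WT livers, also with an exact p of 0.1. With 3 livers against 3, 0.1 is the smallest p possible. Averaged over the genotypes, with labels exchanged within each genotype, the ratio was 9.23 times higher on FFD, with an exact p of 0.005, the smallest that this design allows.

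Between the genotypes on FFD, the ratio of Srebf1 to Srebf2 did not overlap, 4.64 to 6.48 in HKO livers against 7.21 to 10.9 in WT livers. The difference was −0.73 on the log2 scale, with an exact two-sided permutation p of 0.1. On chow the difference was −0.07, with an exact p of 0.9. Averaged over the diets it was −0.40, with an exact p of 0.125. Over 13 alternatives it ran from −0.55 to −0.26 and the exact p from 0.02 to 0.32. The p of 0.02 came with WT chow replicate 3 left out, and the other 12 alternatives stayed on the same side of the threshold as the main result. The difference between the diets in this effect of genotype was −0.66 and was not tested. It was −0.357 without WT chow replicate 3 and −0.943 without WT chow replicate 1.

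**Figure D2:**
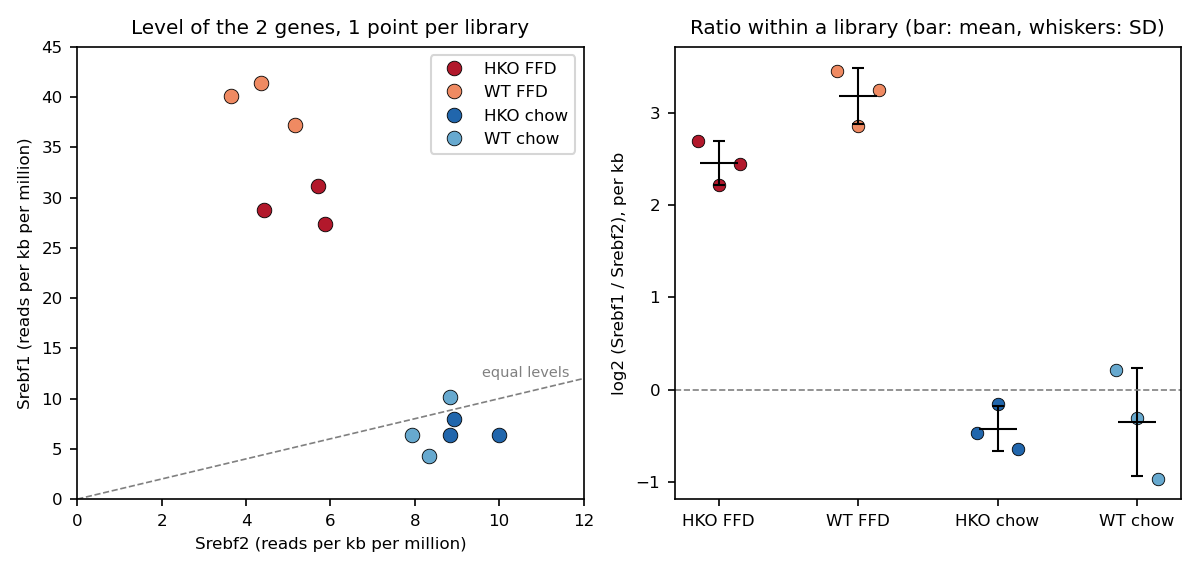
Left, level of Srebf1 (vertical axis) against that of Srebf2 (horizontal axis), both in RPKM, 1 point per liver. Right, log2 ratio of the 2 genes within each liver by group, with mean and SD. FFD livers lie between 2.21 and 3.45 on the log2 scale and chow livers between −0.96 and 0.21.

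Of the retention genes, Insig1 was lower on FFD in both genotypes and Insig2 was called lower in WT livers. Insig1 had 58.7, 61.6 and 69.7 CPM in HKO FFD livers, against 94.8, 191 and 131 CPM in HKO chow livers. In WT livers it had 44.5, 61.6 and 64.0 CPM on FFD, against 182, 144 and 109 CPM on chow. The FFD and chow libraries did not overlap, and the spread on chow was wide in both genotypes, with group means of 139 ± 48.4 CPM in HKO livers and 145 ± 36.5 CPM in WT livers (SD, n = 3 each). By edgeR the log2 fold change with FFD was −1.13 ± 0.24 in HKO livers (adjusted p = 0.00854) and −1.35 ± 0.24 in WT livers (adjusted p = 0.00329). Insig1 is itself a known target of the SREBPs. It lies at chr5:28071363-28078662 on the plus strand.

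Insig2 had 221, 276 and 290.3 CPM in HKO FFD livers, against 448, 345 and 329 CPM in HKO chow livers. In WT livers it had 256, 273 and 213 CPM on FFD, against 389, 309 and 496 CPM on chow. Every FFD library lay below every chow library. The log2 fold change was −0.69 ± 0.18 in WT livers, with an edgeR adjusted p of 0.0211, and −0.51 ± 0.18 in HKO livers, with an adjusted p of 0.0729 that missed the threshold of 0.05. The call in WT livers was lost when WT FFD replicate 1 or 3 or WT chow replicate 3 was left out (adjusted p = 0.051, 0.088 and 0.078), and also without the acute phase pair (adjusted p = 0.077). In HKO livers the same change passed with DESeq2 (adjusted p = 0.034), without WT chow replicate 3, without the acute phase pair and with no filter on low counts. Insig2 lies at chr1:121304353-121332589 on the minus strand. In liver it is known to be transcribed from more than 1 start, and counts per gene do not separate the transcripts.

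Scap, the escort gene at chr9:110333288-110384950 on the plus strand, had 104, 96.6 and 97.9 CPM in HKO FFD livers, against 106, 115 and 121 CPM in HKO chow livers. In WT livers it had 125, 102 and 113 CPM on FFD, against 130.2, 128 and 121 CPM on chow. The diet groups overlapped, and neither genotype alone gave a call, with log2 fold changes of −0.20 ± 0.08 in HKO livers (edgeR adjusted p = 0.14) and −0.16 ± 0.08 in WT livers (adjusted p = 0.239). Averaged over both genotypes the change was −0.18 ± 0.06 with an adjusted p of 0.0422, a call that 12 alternatives did not keep. These were no filter on low counts, the replicate block, the acute phase pair left out (adjusted p = 0.079), and the loss of any 1 of HKO FFD replicates 1, 2 and 3, WT FFD replicates 2 and 3, HKO chow replicates 2 and 3 and WT chow replicates 1 and 2, with adjusted p up to 0.141.

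Mbtps1, which encodes the site-1 protease and lies at chr8:119508156-119558735 on the minus strand, was slightly higher on FFD. It had 92.5, 88.5 and 85.6 CPM in HKO FFD livers, against 76.1, 78.9 and 73.5 CPM in HKO chow livers. In WT livers it had 89.8, 91.3 and 84.9 CPM on FFD, against 72.4, 73.4 and 77.7 CPM on chow. Again the diets did not overlap, and the spread within groups was small, with SDs of 2.68 to 3.49 CPM. The log2 fold change was 0.22 ± 0.07 in HKO livers (edgeR adjusted p = 0.0407) and 0.25 ± 0.07 in WT livers (adjusted p = 0.023). Both calls are close to the threshold. The call in HKO livers was lost without any 1 of HKO FFD replicates 1, 2 and 3, HKO chow replicates 1 and 3, WT FFD replicates 1 and 2 and WT chow replicate 2, and the call in WT livers without any 1 of WT FFD replicates 1 and 2 and WT chow replicates 1 and 2. Both were also lost with no filter on low counts and with only the 2 compared groups in the fit, the call in HKO livers with the replicate block, and the call in WT livers without the acute phase pair (adjusted p = 0.071). Adjusted p under the alternatives reached 0.171 in HKO livers and 0.13 in WT livers, while the change itself stayed at 0.20 to 0.25 and 0.23 to 0.28.

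Mbtps2, which encodes the site-2 protease and lies at chrX:157535371-157598715 on the minus strand, had the lowest level of the 7 genes in RPKM as well as in CPM. Its group means were 10.5 ± 1.43 CPM in HKO FFD livers and 10.8 ± 1.14 CPM in HKO chow livers, and 10.3 ± 0.14 CPM in WT FFD livers and 11.2 ± 0.11 CPM in WT chow livers (SD, n = 3 each). The log2 fold change with FFD was −0.04 (95% interval −0.30 to 0.22) in HKO livers and −0.12 (−0.38 to 0.14) in WT livers, with edgeR adjusted p of 0.869 and 0.559.

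Counted together, 4 of the 7 genes were called in HKO livers, Srebf1 and Mbtps1 higher and Srebf2 and Insig1 lower on FFD, where 13.6% of all tested genes were called, 7.46% higher and 6.12% lower. In WT livers 5 were called, the same 4 and Insig2 lower, where 14.9% of all tested genes were called, 8.24% higher and 6.61% lower. Averaged over the genotypes 6 were called, 2 higher and 4 lower, where the share of all genes was 26.8%, with 13.9% higher and 12.9% lower. For 5 of the 7 genes the FFD and chow libraries did not overlap, with FFD higher for 2 and lower for 3. This held for 11.3% of all tested genes, 6.57% with FFD higher and 4.78% with FFD lower. In WT livers the count fell to 3 without the acute phase pair, and Srebf1, Srebf2 and Insig1 were those that kept their calls.

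**Figure D3:**
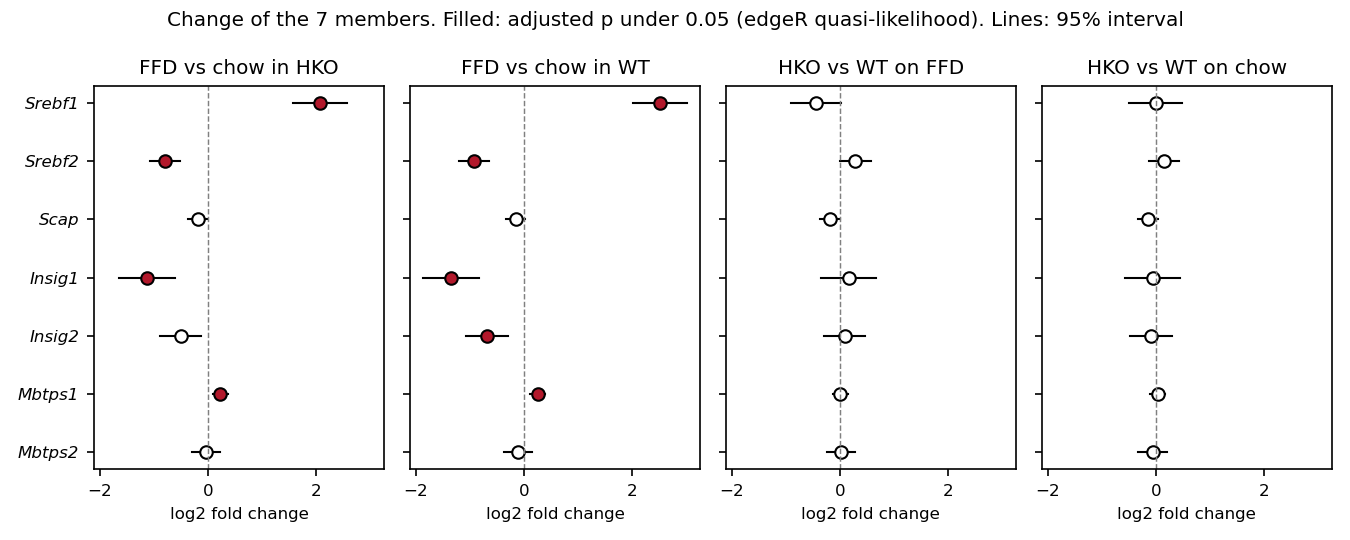
Log2 fold change (horizontal axes) of the 7 genes (vertical axes) in the comparisons of diet and of genotype, with 95% intervals and filled points where the edgeR adjusted p was under 0.05. Srebf1 stands at 2.07 in HKO livers and 2.51 in WT livers on the diet axes, while no point is filled for HKO against WT.

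In RPKM, Insig2 mRNA was the most abundant of the 7 in all 4 groups and Mbtps2 mRNA the least. On FFD Srebf1 ranked 2 of 7, with 29.1 ± 1.94 RPKM in HKO livers and 39.6 ± 2.13 in WT livers (SD, n = 3 each). On chow it ranked 6 in both genotypes, with 6.92 ± 0.92 RPKM in HKO livers and 6.95 ± 3.00 in WT livers, and its libraries overlapped those of Mbtps1. Srebf2 took the opposite course, rank 6 on FFD with 5.34 RPKM in HKO livers and 4.39 in WT livers, and rank 4 on chow with 9.25 in HKO livers and 8.36 in WT livers. Insig1 ranked 2 on chow, at 44.9 RPKM in HKO livers and 46.9 in WT livers, and 3 on FFD, at 20.5 in HKO livers and 18.3 in WT livers. In WT FFD livers the Insig1 and Scap libraries overlapped. All other neighbours in the order were separated in every library of their group.

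The knockout of Slc25a34 gave no call among the 7 genes on either diet. On FFD 0 of 7 passed by edgeR's adjusted p, where 0.007% of all tested genes were called, and DESeq2 also called 0. Of the 7, 2 had an unadjusted edgeR p under 0.05, as did 1333 of all 14277 tested genes. Srebf1 was 0.735 times the WT level in HKO livers on FFD, with 154 to 176 CPM in HKO livers against 209.9 to 233 CPM in WT livers. These libraries did not overlap, as was true of 16.4% of all genes, and the log2 fold change was −0.44 (95% interval −0.91 to 0.02) with an edgeR adjusted p of 0.56. Srebf2 differed by 0.28 (0.0036 to 0.56) with an adjusted p of 0.524, and Scap by −0.19 (−0.37 to −0.01) with an adjusted p of 0.51. These last 2 are the genes with an unadjusted p under 0.05, and the libraries of HKO and WT livers overlapped for both. Their values moved with WT FFD replicates 1 and 2: Srebf2 differed by 0.170 without the first and 0.414 without the second, and Scap by −0.114 and −0.261.

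On chow 0 of 7 passed by edgeR, where 0.021% of all tested genes were called, 0 had an unadjusted p under 0.05, and DESeq2 called 0. The mean of Srebf1 was 39.0 ± 5.19 CPM in HKO livers and 39.2 ± 16.9 CPM in WT livers, and its log2 fold change of −0.0045 had a 95% interval of −0.49 to 0.48. Srebf2 differed by 0.15 (−0.13 to 0.42) and Scap by −0.15 (−0.33 to 0.03). The HKO and WT chow libraries of these 2 genes touched without overlapping, at 63.4 CPM for Srebf2 and 121 CPM for Scap, as the chow libraries of 14.2% of all genes did not overlap. Insig1, Insig2, Mbtps1 and Mbtps2 differed by −0.06, −0.09, 0.03 and −0.06, with intervals that all held 0 and reached from −0.56 to 0.44 at the widest. Averaged over the diets 0 of 7 passed by edgeR, where 0.035% of all tested genes were called, and DESeq2 called 0. Again 2 of the 7, Srebf2 and Scap, had an unadjusted edgeR p under 0.05, as did 1748 of all 14277 tested genes.

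The difference of the diet effect between HKO and WT livers was tested as an interaction, and 0 of 7 genes passed by edgeR, where 0% of all tested genes were called, 0 had an unadjusted p under 0.05, and DESeq2 called 0. For Srebf1 the interaction was −0.44 ± 0.31 on the log2 scale (95% interval −1.12 to 0.24), with an edgeR adjusted p of 0.724. For Srebf2 it was 0.14 (−0.25 to 0.53) and for Insig1 0.22 (−0.49 to 0.94). With 1 library left out at a time, the interaction kept its sign but ranged from −0.823 (without WT chow replicate 1) to −0.183 (without WT chow replicate 3) for Srebf1. It ranged from 0.0280 (without WT FFD replicate 1) to 0.268 (without WT FFD replicate 2) for Srebf2. For Insig1 it ranged from 0.0133 (without HKO chow replicate 1) to 0.526 (without HKO chow replicate 2).

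Most genes that SREBP-2 is known to activate fell with Srebf2. Of 23 tested genes of sterol synthesis and uptake, 17 were lower and 0 higher on FFD in HKO livers. In WT livers 17 were lower and 0 higher, with 16 lower in both. The shares of all tested genes called lower were 6.12% in HKO livers and 6.61% in WT livers. Averaged over the genotypes 18 of the list were lower and 2 higher, where 12.9% of all tested genes were lower and 13.9% higher. The median log2 fold change of the list was −0.95 in HKO livers and −0.71 in WT livers, against −0.01 over all genes in both. Idi1, which isomerises isopentenyl diphosphate, averaged 1.30 ± 0.37 CPM in HKO FFD livers and 17.6 ± 8.23 CPM in HKO chow livers, and 1.20 ± 0.14 CPM in WT FFD livers and 16.3 ± 3.03 CPM in WT chow livers (SD, n = 3 each). Squalene epoxidase, Sqle, changed by −3.81 in HKO livers and −3.50 in WT livers. Cyp51, the lanosterol demethylase, changed by −2.27 and −2.15 in HKO and WT livers, and Hsd17b7, which reduces a sterol ketone, by −1.28 and −1.26. In WT livers the count of lower genes was 12 without the 2 acute phase libraries.

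Genes that SREBP-1c is known to activate did not all follow Srebf1, and their calls went in both directions. Of 16 tested genes of fatty acid and triglyceride synthesis, 6 were higher and 3 lower on FFD in HKO livers, and 6 were higher and 1 lower in WT livers. Averaged over the genotypes 6 were higher and 6 lower. The shares of all tested genes were 7.46% higher and 6.12% lower in HKO livers, and 8.24% and 6.61% in WT livers. Averaged they were 13.9% and 12.9%. The 6 higher in HKO livers and in WT livers were the same genes, namely Scd1, Fads2, Elovl6, Acaca, Thrsp and Aacs, and the median of the list was 0.06 in HKO livers and 0.07 in WT livers. Scd1, which makes monounsaturated fatty acids, changed by 4.36 ± 0.29 in HKO livers and 3.97 ± 0.29 in WT livers on the log2 scale, more than Srebf1 itself. Fads2, a desaturase of polyunsaturated fatty acids, changed by 0.54 in HKO livers and 0.77 in WT livers. Elovl6, which lengthens palmitate, changed by 0.59 in HKO livers and 1.07 in WT livers. Fasn, the fatty acid synthase, averaged 107 ± 8.32 CPM in HKO FFD livers and 155 ± 26.7 CPM in HKO chow livers, a change of −0.54 with an edgeR adjusted p of 0.00946. In WT livers Fasn averaged 119.9 ± 7.22 CPM on FFD and 116 ± 10.03 CPM on chow, a change of 0.04 with an adjusted p of 0.84. The number of higher genes in HKO livers was 3 when HKO chow replicate 3 was left out.

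**Figure D4:**
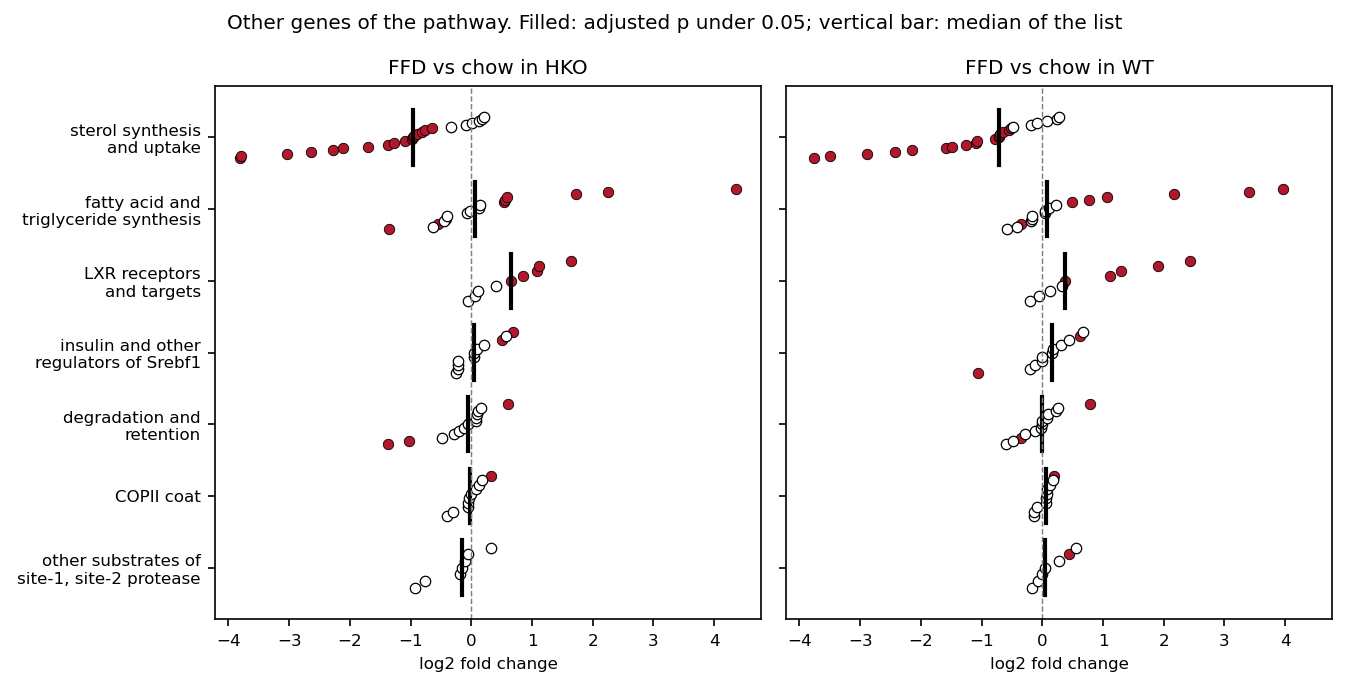
Log2 fold change with FFD (horizontal axes) of the genes of the 7 lists (vertical axes) in HKO and WT livers, filled where the edgeR adjusted p was under 0.05, with a bar at the median of each list. The sterol genes lie mostly below 0, with medians of −0.95 and −0.71 in HKO and WT livers, and the fatty acid genes lie on both sides of 0.

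Genes of LXR, the receptor whose element the Srebf1 window carries, rose in part. Of 9 tested genes that encode LXR, its partner receptors or its targets, 5 were higher and 0 lower on FFD in HKO livers. In WT livers 5 were higher and 0 lower. The shares of all tested genes called higher were 7.46% in HKO livers and 8.24% in WT livers. The sterol exporters Abca1, Abcg1, Abcg5 and Abcg8 were higher in both. Abca1, which loads cholesterol onto apolipoprotein A-I, averaged 372 ± 12.7 CPM in HKO FFD livers and 172 ± 19.8 CPM in HKO chow livers, and 422 ± 58.7 CPM in WT FFD livers and 195 ± 19.9 CPM in WT chow livers (SD, n = 3 each). Abcg5, a subunit of the canalicular sterol pump, changed by 1.65 in HKO livers and 2.43 in WT livers on the log2 scale. Its partner Abcg8 changed by 1.08 in HKO livers and 1.90 in WT livers, and the 2 genes overlap on opposite strands, so that their reads may be shared. Nr1h3, which encodes LXRα, changed by −0.05 in HKO livers and 0.13 in WT livers, without a call in either.

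Among 11 tested regulators of Srebf1 transcription and insulin signalling, 2 were higher and 0 lower in HKO livers, and 1 was higher and 1 lower in WT livers. Averaged over the genotypes 2 were higher and 2 lower, and in all 3 comparisons the shares of all genes called were those given above, 13.6%, 14.9% and 26.8%. Mlxipl, which encodes the glucose-responsive factor ChREBP, was higher in both, by 0.50 in HKO livers and 0.62 in WT livers. Foxo1, a factor that insulin inactivates, was called higher in HKO livers, by 0.69. Irs1, an adaptor of the insulin receptor, was called lower in WT livers, by −1.07 ± 0.22 on the log2 scale. Averaged over the genotypes both were called, Foxo1 by 0.57 and Irs1 by −0.65. Of 13 tested genes that degrade or retain SCAP, INSIG and SREBP, 1 was higher and 2 lower in HKO livers, 1 higher and 1 lower in WT livers, and 2 higher and 4 lower averaged over the genotypes. Rnf145, a sterol-sensitive ubiquitin ligase that acts on SCAP, was higher in both, by 0.61 in HKO livers and 0.78 in WT livers. Syvn1, a ubiquitin ligase of the endoplasmic reticulum, and Hsp90b1, a chaperone there, changed by −1.37 and −1.02 in HKO livers. Averaged over the genotypes both were also called, by −0.98 and −0.75.

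Of 10 tested genes of the COPII coat that carries SCAP and SREBP to the Golgi, 1 was higher in each genotype and 0 lower, Sar1b by 0.32 in HKO livers and Sar1a by 0.20 in WT livers. Of all tested genes, 7.46% were higher in HKO livers and 8.24% in WT livers. Averaged over the genotypes 2 coat genes were higher and 1 lower, where 13.9% of all tested genes were higher and 12.9% lower. Of 7 tested genes for other substrates of the 2 proteases, 0 were called in HKO livers by edgeR, where 3 had an unadjusted p under 0.05 and DESeq2 called 1. In WT livers 1 was called, Gnptab, by 0.43. Of the 89 tested genes of the 7 lists, edgeR called 0 between HKO and WT livers on FFD, 0 on chow, 0 averaged over the diets and 0 in the interaction. Unadjusted p was under 0.05 for 10, 8, 13 and 11 of them in these comparisons, as for 1333, 1680, 1748 and 1293 of all 14277 genes, and DESeq2 called 0, 1, 1 and 0 of the list genes. The gene called by DESeq2 was Lpin1, which encodes a phosphatidate phosphatase, both times.

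Markers of other liver cells were examined beside the diet results. The 6 macrophage markers summed to 327 to 411 CPM in FFD libraries and 205 to 300.4 CPM in chow libraries, and averaged over the genotypes 4 of 6 were higher on FFD. The 5 cholangiocyte markers summed to 6.10 to 9.09 CPM in FFD libraries and 12.7 to 31.7 CPM in chow libraries, with 1 of 5 lower. The 4 adipocyte markers summed to 21.2 to 146 CPM in FFD libraries and 0.154 to 24.7 CPM in chow libraries. Only 1 of them passed the filter on low counts, and it was called higher on FFD. The FFD libraries alone could carry a marker through that filter, so this call is not independent of it. Of the 7 hepatocyte markers 2 were lower averaged over the genotypes, and 1 in WT livers alone. Of the 5 lymphocyte markers 1 was higher, as was 1 of the 3 red blood cell markers. The 6 stellate cell and 5 endothelial cell markers had 0 calls in the same comparison, and their sums overlapped between the diets. Averaged over the genotypes, 13.9% of all tested genes were higher and 12.9% lower, and the marker counts were not tested against these shares. The part of these cells in the levels of the 7 genes was not tested. No marker was called in any comparison of HKO with WT livers.

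The genes whose log2 CPM ran most like that of Srebf1 over the 12 libraries, among 9400 other protein-coding genes with a mean of at least 5 CPM, were Ghr, Hsd3b3, Gbp7, Cyp4f15 and Scd1. Their Pearson r ranged from 0.974 for Scd1 to 0.980 for Ghr, the growth hormone receptor gene. Within the 6 chow libraries the r of Ghr with Srebf1 was 0.956, and within the 6 FFD libraries it was −0.075. For Srebf2 the nearest genes were Bcl7c, Rps13, Asl, Rplp0 and Rpl7, with r from 0.946 to 0.974, and 3 of them encode ribosomal proteins. Asl, argininosuccinate lyase of the urea cycle, had an r of 0.951 and changed by −1.06 in HKO livers and −1.05 in WT livers with FFD. These are descriptions over libraries that share the split by diet, which raises r for any gene that differs between diets. Hsd3b3, Gbp7, Cyp4f15 and the ribosomal protein genes have close paralogs or pseudogenes, among which the counting may divide reads.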

How the data were processed

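Whole-liver RNA of 12 mice was sequenced, 1 library per mouse. The authors deposited raw read counts per gene with gene lengths and coordinates. Reads had been aligned with STAR and counted with featureCounts 1.5.0-p3 on mm10, per the submitters' processing notes. The strand setting, annotation release and STAR version are not given in the sources used here. Reads of genes that overlap on opposite strands therefore cannot be told apart. Those examined included Srebf1 with Rai1, Abcg5 with Abcg8, Acss2 with Gss, Creb3 with Tln1 and Gba2, and Paqr3 with Bmp2k. Fdft1 overlaps Ctsb, which had up to 13826 reads in a library, against up to 1212 for Fdft1. Cyp51, Lpcat3, Syvn1, Rnf139 and Hsp90b1 also overlap a gene on the opposite strand.

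Groups came from the labels, which describe the replicates as separate mice, and every column of counts was used. Library totals were 12842187 to 24332663. Libraries of a group differed far beyond sampling noise (chi-square per degree of freedom 9.26 to 39.7). In R 4.3.3, edgeR 4.0.16 kept 14277 genes by filterByExpr, scaled libraries with TMM factors (trimmed mean of M values) and fitted all 12 libraries in a single quasi-likelihood model of the 4 groups. It tested 7 comparisons, with Benjamini-Hochberg adjustment over all tested genes and 0.05 as the threshold. CPM use the TMM sizes, RPKM divide them by the deposited gene length, and log2 CPM for the ratio of Srebf1 to Srebf2 and for the search for like genes added a prior count of 2. The ratio was tested by exact permutation over libraries. Fold changes are fitted and can differ from ratios of means. The fit was also run on simulated data with known changes in a limited set of genes, where every other gene had the same mean in all 4 groups. The outcome of that simulation is not given here and is not used as support for any result.

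The members and the 7 lists (92 symbols) were chosen with earlier results of these data known. The text names the 7 members, Slc25a34, genes overlapping a member, up to 4 genes of a list per comparison by smallest p, and the 5 protein-coding genes most like Srebf1 and Srebf2. Nr1h3, Acaca, Elovl6 and Lpin1 in comparisons where that rule does not reach them were named after their values were seen. Alternatives were RLE size factors, no filter on low counts, a filter of 1 CPM in 3 libraries, robust dispersion, DESeq2 1.42.0, the mouse number as a replicate block, each library left out, the acute phase pair left out, and only the 2 groups compared. Promoters come from RefSeq tables on GRCm38.p6.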

Additional observations from a re-analysis of the deposited data

How the results depend on the processing

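Over 49 pairs of gene and comparison, the alternatives gave 959 values, of which 889 kept direction and side of the threshold, 34 lost a call, 4 gained one and 32 changed sign. All 32 sign changes were in values that were not called. Srebf1, Srebf2 and Insig1 kept their diet calls in both genotypes under every alternative, with log2 fold changes of 2.01 to 2.19 in HKO livers and 2.25 to 2.89 in WT livers for Srebf1, −0.86 to −0.67 and −1.06 to −0.82 for Srebf2, and −1.34 to −0.83 and −1.58 to −1.16 for Insig1. The number of members called with FFD in WT livers was 3 without the 2 acute phase libraries, and 3 to 5 with single libraries left out. Without those 2 libraries the HKO against WT change of Insig2 was 0.10 on chow and 0.13 averaged over the diets, and that of Insig1 averaged was −0.0043, while Srebf1 differed by −0.258 on chow. For these the cause was not tested.

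With single libraries left out, uncalled HKO against WT values spanned 0. On chow these were −0.262 to 0.378 for Srebf1, −0.365 to 0.146 for Insig1, −0.246 to 0.0929 for Insig2 and −0.372 to 0.213 for the log2 ratio of Srebf1 to Srebf2. On FFD they were −0.0124 to 0.196 for Insig2, −0.0277 to 0.0280 for Mbtps1 and −0.0948 to 0.0814 for Mbtps2. Averaged over the diets they were −0.102 to 0.153 for Insig1, −0.0806 to 0.0887 for Insig2 and −0.0806 to 0.00949 for Mbtps2. The averaged ratio stayed below 0, at −0.551 to −0.258, with exact permutation p from 0.02 to 0.32. The interactions ranged over −0.00842 to 0.332 for Insig2, −0.0601 to 0.00291 for Mbtps1, −0.0284 to 0.171 for Mbtps2 and −0.113 to 0.0380 for Scap, and the diet change of Mbtps2 in HKO livers over −0.148 to 0.0505. The higher fatty acid genes in HKO livers numbered 3 to 6. Recounting the lists under the alternatives was chosen after seeing the data.

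Same-numbered mice did not deviate together more than others (r −0.114 to 0.117 over 18 pairs, median −0.0095). Differently numbered mice of different groups had r of −0.123 to 0.130. No pairing by number was seen, but with 3 mice a group this check cannot exclude a weak pairing. With the replicate block, 3 members were called with diet in HKO livers and 5 averaged, and the change of Srebf1 on chow between HKO and WT was 0.0313. The number of all genes called with diet under the block was 1763 in HKO livers and 1866 in WT livers, against 1939 and 2121.

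Over all genes, HKO against WT gave 3 calls on chow, 1 on FFD, 5 averaged and 0 for the interaction. DESeq2 gave 130, 139, 236 and 95 in that order, no filter gave 395, 306, 454 and 238, and the other settings 0 to 313, 0 to 30, 1 to 231 and 0 to 81. With FFD in WT livers 1187 genes were called without the acute phase pair, and 1113 to 2334 with single libraries left out, against 967 to 2125 in HKO livers. With 3 livers a group, intervals of the interaction limit what could be detected.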
